A study of Mus musculus with 2 samples.

Results

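Open chromatin was examined around 6 mouse genes that encode repressive helix-loop-helix proteins: Id1, Id2, Id3, Id4, Bhlhe40 and Bhlhe41. A peak was assigned to a gene when it overlapped the gene body or lay within 50 kb of it, which gave 28 of the 17784 peaks called in vehicle-treated cells and 32 of the 22600 peaks called after TGFβ. The 6 genes were picked with earlier results of these same lists known, so the counts of peaks per gene and list describe the choice and were not tested.

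The cells were NMuMG, an epithelial cell line that comes from the mouse mammary gland. All cells were first starved of serum and insulin for 6 h, and then received TGFβ1 at 5 ng/ml or its vehicle for 2 h. The vehicle is given as Tris-HCl with BSA by one label and as dilute HCl with BSA by another. Nuclei were digested with DNaseI, which cuts exposed DNA, short fragments were sequenced, and pile-ups of fragments were deposited as peaks. There was 1 list for vehicle and 1 for TGFβ 2 h, so no spread between replicates could be measured and every contrast below is one between a single pair of lists.

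Id proteins carry a helix-loop-helix domain with no DNA-binding basic region. They pair with E proteins such as those of Tcf3, Tcf4 and Tcf12, and so keep E proteins and tissue-specific partners off the E-box, the short element that basic helix-loop-helix factors bind. Id genes are classical targets of BMP signalling through Smad1 and Smad5, whereas in epithelial cells TGFβ is known to lower Id1 transcription after an early phase, through Smad3 and the stress factor Atf3. Bhlhe40 and Bhlhe41 (also called Dec1 and Dec2) do bind DNA, mainly at the E-box CACGTG, repress transcription there and take part in the circadian clock.

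Peaks with no base in common with any peak of the other list are called vehicle-only or TGFβ 2 h-only, and all others shared. These names say in which list a peak was called, and not that the other condition had no signal. A promoter peak overlapped a stretch of 1000 bp either side of an annotated transcript start, and all other peaks are called distal. Each peak carries the authors' score, with 540 as the lowest value and 1000 as the ceiling of either list, which ranks peaks only within its own list. Of all peaks, 53.2% in the vehicle list and 44.3% in the TGFβ 2 h list sat at the ceiling. The lists give no read depth. The study's reporting summary lists fewer reads for TGFβ 2 h than for vehicle, and the part of depth in the counts of peaks was not tested. Promoters of Cdh1, Krt8, Krt18 and Krt19 held a peak in both lists, whereas those of the epithelial genes Epcam, Cldn4, Cldn7 and Esrp1 held none. No promoter of the 4 immune or endothelial genes reported (Ptprc, Cd3e, Pecam1, Cdh5) held one, and 2 of 4 mesenchymal promoters did, those of Col1a1 and Twist2.

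Over all peaks, the 4 Id genes had fewer and the Bhlhe pair more peaks in the TGFβ 2 h list. Among peaks scoring no lower than their list's median, the difference was 1 for the Id genes and 5 for the Bhlhe pair. The direction at the Id genes thus turned. The vehicle median was the ceiling itself and that of the TGFβ 2 h list lay below it, so the cuts were unlike. Within 20 kb the differences were -1 and 2. Near the Id genes, 21 vehicle peaks stood against 16 TGFβ 2 h peaks, and the bases covered were 12234 bp and 8596 bp. Near Bhlhe40 and Bhlhe41, 7 vehicle peaks stood against 16 TGFβ 2 h peaks, which covered 6778 bp and 10059 bp. Of the Id peaks, 6 in the vehicle list were vehicle-only (28.6%, Wilson 95% interval 13.8 to 50.0) and 1 in the TGFβ 2 h list was TGFβ 2 h-only (6.25%, 1.11 to 28.3). The split at the Id genes was 3 vehicle-only and 4 TGFβ 2 h-only peaks when peaks scoring below their list's median were left out. Overlap was then counted among the kept peaks only, so a shared peak whose counterpart was left out counted as unshared. Of the Id peaks unshared in the full lists, 1 of each list was at the ceiling. The split was 9 and 4 when shared peaks had to overlap by 50% of each. Of the Bhlhe peaks, 1 was vehicle-only (14.3%, 2.57 to 51.3) and 9 were TGFβ 2 h-only (56.2%, 33.2 to 76.9). In the whole series 17.6% of vehicle peaks were vehicle-only and 33.7% of TGFβ 2 h peaks were TGFβ 2 h-only. Because the genes were chosen from these same lists, nothing is read from the distance between the shares of the members and of the series. The intervals cover the counting of peaks only.

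Every one of the 17 unshared peaks was distal. None of the 9 vehicle and 10 TGFβ 2 h promoter peaks was unshared, against 7.29% and 10.1% of promoter peaks of these lists in the series. With so few promoter peaks, nothing is read from this contrast. Promoters of all 6 genes held a peak in both lists, whereas 45.8% of protein-coding genes did in the vehicle list and 46.4% in the TGFβ 2 h list. Unshared peaks were mostly distal in the series too, at 76.1% of those in the vehicle list and 85.7% of those in the TGFβ 2 h list. Among distal peaks alone, 6 of 14 Id peaks were vehicle-only (42.9%, against 31.6% of distal vehicle peaks in the series) and 1 of 9 was TGFβ 2 h-only (11.1%, against 55.3%). For the Bhlhe pair the counts were 1 of 5 (20.0%) and 9 of 13 (69.2%). These shares are over distal peaks of any score.

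**Figure D1:**
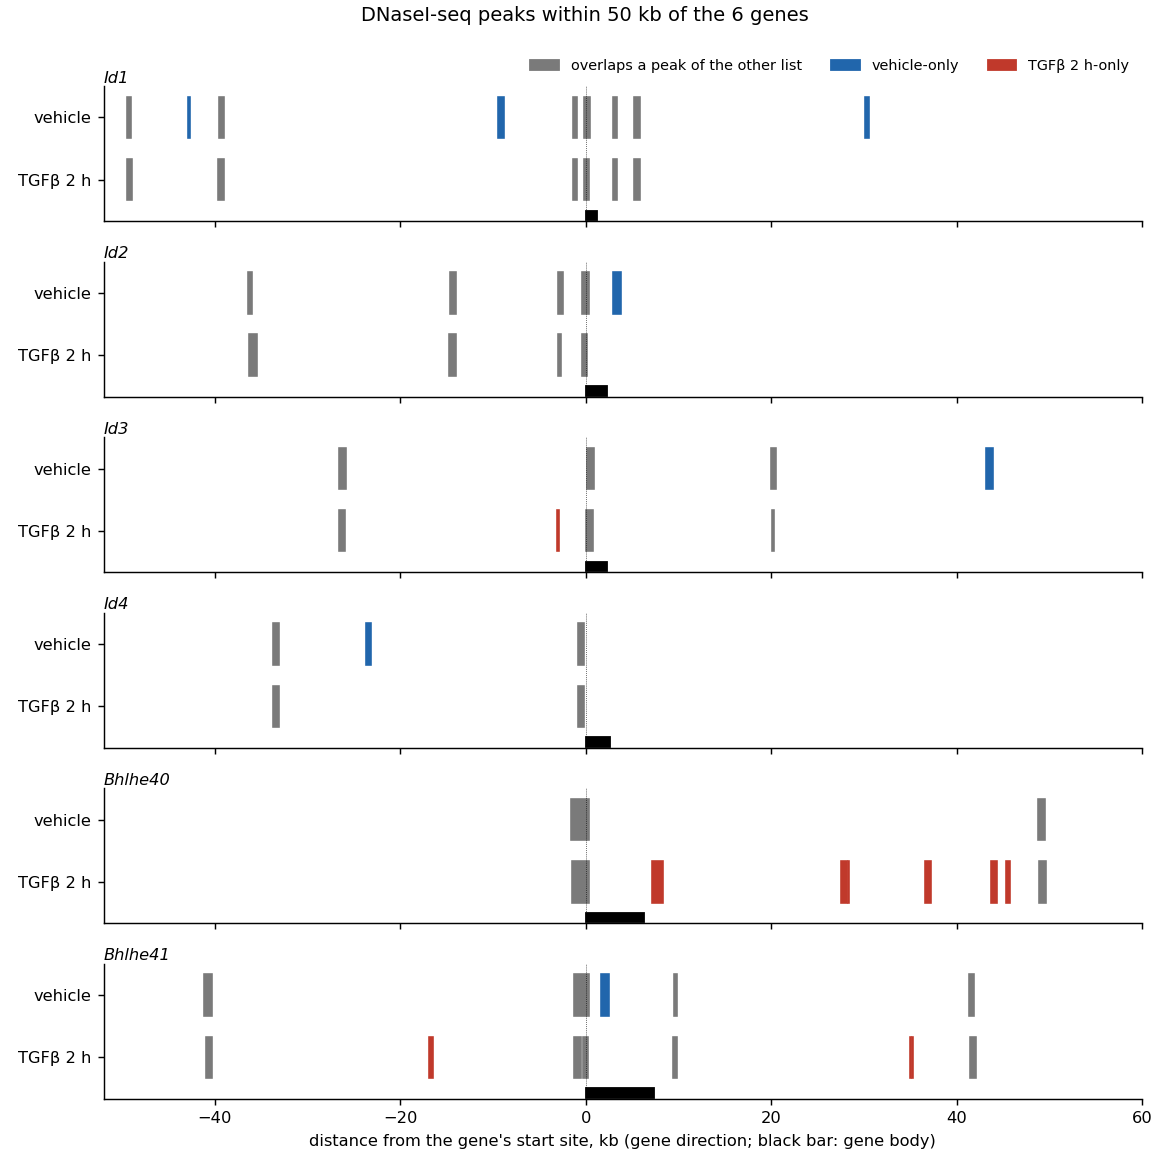
Peaks called in the vehicle list (upper row of each panel) and in the TGFβ 2 h list (lower row) around each gene, drawn by distance from the start site in kb, in gene direction, with the gene body as a black bar. Grey peaks overlap a peak of the other list, blue ones are vehicle-only and red ones TGFβ 2 h-only; 6 red peaks lie downstream of Bhlhe40, of which a pair near +28 kb is too close to tell apart at this scale, as is a pair near +35 kb of Bhlhe41.

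**Figure D2:**
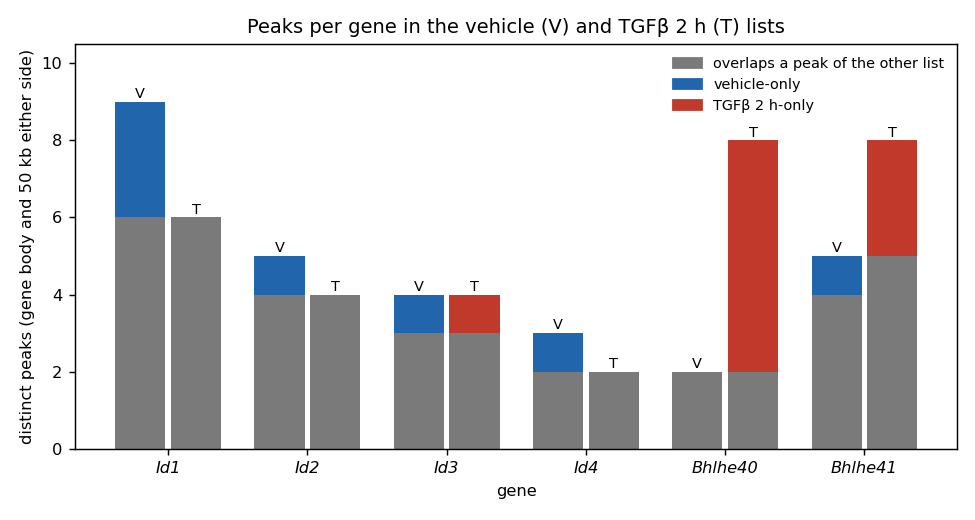
Number of distinct peaks within the gene body and 50 kb either side, for vehicle (V) and TGFβ 2 h (T), stacked into those that overlap a peak of the other list and those that do not. Id1 goes from 9 to 6 peaks and Bhlhe40 from 2 to 8, and the Id genes other than Id3 have no red segment.

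Id1 had the most vehicle peaks of the 6 genes. It lies at chr2:152561987-152563146 (mm9, plus strand; ENSMUSG00000042745.9), and its protein is known to restrain differentiation and senescence. Of 9 vehicle peaks 3 were vehicle-only, and all 6 TGFβ 2 h peaks were shared. Among 22350 protein-coding genes, 13.2% had fewer TGFβ 2 h than vehicle peaks, and 0.51% had a difference at least as low as that of Id1. This place is a description of the choice of genes and was not tested. The Id1 difference behind it was -3 peaks. It was -1 within 20 kb, -1 by nearest protein-coding start and 0 among peaks at or above the median score.

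Both start-site peaks of Id1 were shared. The peak over the start measured 646 bp in the vehicle list and 500 bp in the TGFβ 2 h list, and both scored 1000. A neighbour centred at -1.17 kb measured 510 bp with a score of 963 and, in the TGFβ 2 h list, 493 bp with a score of 1000. The upstream peak was therefore nearly unchanged in width, and the peak over the start was narrower by a factor of 0.774.

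The upstream Id1 peak is shown because it holds, 33 bases apart, the element GGCGCC, a core to which Smad1 and Smad5 bind in BMP-responsive Id promoters, and TGACGTCA, the CRE bound by Atf and Creb factors. The sequence is chr2:152560828-152560953 on the plus strand of mm9, with both elements in capitals.
Id1 upstream: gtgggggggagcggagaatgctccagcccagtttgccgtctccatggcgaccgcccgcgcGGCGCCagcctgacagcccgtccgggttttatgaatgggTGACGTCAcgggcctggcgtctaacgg
Only 1.84% of shared TGFβ 2 h promoter peaks in the series held TGACGTCA within 100 bp of their midpoint. In the Id1 peak the CRE was centred 126 bp from the TGFβ 2 h midpoint, outside that window. GGCGCC lay inside the window, as it did in 21.1% of the shared TGFβ 2 h promoter peaks. A match is a run of letters and does not show that a factor was bound.

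The 3 vehicle-only peaks of Id1 were spread over its window. One centred at -42.83 kb was 184 bp wide with a score of 693 and lay in an intron of H13. One at -9.14 kb was 598 bp wide with a score of 546, close to the lowest score of the list, and one at +30.34 kb was 362 bp wide with a score of 907; both were intergenic. The nearest TGFβ 2 h peaks were 3.11, 7.41 and 24.31 kb away, so none of the 3 was a narrow miss in overlap. The start site of Cox4i2 lay closer to the +30.34 kb peak than that of Id1, at 12.42 kb, and the -42.83 kb peak lay closest to Mcts2, at 6.28 kb. Of the 3, only the -9.14 kb peak therefore had Id1 as its nearest protein-coding start.

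That peak is shown as the only unshared vehicle peak of the 6 genes with an AP-1 element. AP-1, the Jun and Fos dimer, binds TGACTCA or, on the other strand, TGAGTCA. The stretch is chr2:152552734-152552860, plus strand, with AP-1 and the E-boxes CAGGTG and CACGTG in capitals.
Id1 vehicle-only: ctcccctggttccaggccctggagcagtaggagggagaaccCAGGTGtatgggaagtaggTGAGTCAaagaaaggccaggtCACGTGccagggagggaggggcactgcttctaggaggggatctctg
The AP-1 element stood 13 bases after the E-box CAGGTG and 14 bases before CACGTG. Of all distal vehicle-only peaks in the series, 7.69% held AP-1 and 4.24% held CACGTG within 100 bp of the midpoint. The vehicle-only peaks of the 6 genes held AP-1 in 1 of 7 and CACGTG in 2 of 7 by the same measure.

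The remaining 4 Id1 peaks of each list were shared. A pair at +3.15 and +5.51 kb, downstream of the gene, measured 437 and 716 bp in the vehicle list and 431 and 686 bp in the TGFβ 2 h list. The score at +3.15 kb was 564 for vehicle and 782 for TGFβ 2 h. The others overlapped starts of transcripts within H13, including that of Mcts2 (-49.24 kb).

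Id2 showed the same direction on a smaller scale, with 5 vehicle and 4 TGFβ 2 h peaks. At least 1 vehicle-only peak was present at 5 of the 6 genes, all but Bhlhe40, and at 25.9% of protein-coding genes. Its protein is required for lobuloalveolar growth of the mammary gland in pregnancy. The gene lies at chr12:25778666-25780957 on the minus strand (ENSMUSG00000020644.8), with no other protein-coding start in the window. The start-site peak was 729 bp wide in the vehicle list and 518 bp in the TGFβ 2 h list, at a score of 1000 in both. A shared peak at -2.71 kb measured 576 bp with a score of 1000 in the vehicle list. In the TGFβ 2 h list it measured 275 bp with a score of 763. Both of these peaks were thus narrower in the TGFβ 2 h list, by factors of 0.711 and 0.477. So were 70.9% of all peaks in the series that matched one to one between the lists. The shared peaks farther upstream ran the other way, from 565 to 697 bp at -14.31 kb and from 438 to 778 bp at -36.19 kb.

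The single vehicle-only peak of Id2 had the highest score possible. It was centred at +3.33 kb, just past the 3′ end of the gene, measured 840 bp at a score of 1000, and lay 2.79 kb from the nearest TGFβ 2 h peak. It was the widest unshared vehicle peak of the 6 genes and the only one at the ceiling. Its sequence held 6 copies of CAGGTG, an E-box bound by E proteins and by Snail and Zeb factors. The middle of the peak (chr12:25777592-25777717, minus strand) is shown with the E-boxes in capitals, beside a stretch upstream of the start (chr12:25781123-25781248, minus strand) with GGCGCC and the E-box CAGCTG in capitals.
Id2 vehicle-only: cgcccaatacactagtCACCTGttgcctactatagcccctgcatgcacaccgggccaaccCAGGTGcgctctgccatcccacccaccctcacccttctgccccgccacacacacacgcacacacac
Id2 start: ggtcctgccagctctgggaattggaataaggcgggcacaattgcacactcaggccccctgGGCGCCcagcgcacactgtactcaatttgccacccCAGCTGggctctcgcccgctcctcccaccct
CAGGTG is common: within 100 bp of the midpoint it stood in 20.4% of distal vehicle-only peaks and 16.8% of distal TGFβ 2 h-only peaks.

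Id3 was the only Id gene with a TGFβ 2 h-only peak. It lies at chr4:135699412-135701670 on the plus strand (ENSMUSG00000007872.3) and is regulated much like Id1 in many cells. Each list held 4 peaks, of which 3 were shared. The start-site peak was 776 bp wide in the vehicle list and 717 bp in the TGFβ 2 h list, at the ceiling in either. The TGFβ 2 h-only peak, at -3.0 kb, was 286 bp wide with a score of 1000 and lay 2.95 kb from the nearest vehicle peak. The vehicle-only peak, at +43.57 kb in an intron of E2f2, was 725 bp wide with a score of 643. The peak called only after TGFβ was therefore close to the start of Id3, whereas the one called only with vehicle lay within another gene, whose start was at 14.68 kb.

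The TGFβ 2 h-only peak of Id3 is printed because it is the exception among the Id genes and holds GGCGCC, which stood in 2.56% of distal TGFβ 2 h-only peaks of the series. The stretch is chr4:135696395-135696520, plus strand, with GGCGCC and the E-boxes CAGCTG in capitals.
Id3 TGFβ 2 h-only: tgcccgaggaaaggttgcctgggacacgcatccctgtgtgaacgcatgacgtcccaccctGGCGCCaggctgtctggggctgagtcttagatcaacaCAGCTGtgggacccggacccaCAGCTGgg
The pair of CAGCTG elements, the E-box favoured by myogenic factors and their E partners, was 15 bases apart. Neither the AP-1 element nor the CRE was found in this peak.

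A shared peak of Id3 at +20.22 kb showed the strongest narrowing of the 20 one-to-one pairs described below. It measured 522 bp with a score of 662 in the vehicle list, and 191 bp with a score of 627 in the TGFβ 2 h list.

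Id4 had the fewest peaks of the Id genes, 3 in the vehicle list and 2 in the TGFβ 2 h list. It lies at chr13:48356796-48359405 on the plus strand (ENSMUSG00000021379.1), next to the start of the divergent transcript A330033J07Rik, and its protein is known in mammary stem and basal cells. The start-site peak was 597 bp wide in the vehicle list and 567 bp in the TGFβ 2 h list. A shared peak at -33.39 kb measured 609 and 618 bp. All of these scored 1000, so the shared peaks of Id4 differed little between the lists. The vehicle-only peak, at -23.43 kb, was 618 bp wide with a score of 553 and lay 9.37 kb from the nearest TGFβ 2 h peak. It had the latest place in its list of all unshared vehicle peaks of the 6 genes. The upstream shared peak was the other member peak with a CRE, which was centred at -106 bp from the TGFβ 2 h midpoint.

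Over whole peaks, the GGCGCC element was found at the start of every Id gene and also at that of Bhlhe40. It stood in the upstream start-site peak of Id1, and once in the start-site peak of each of Id2, Id3, Id4 and Bhlhe40, in both lists. No share of the series over whole peaks was computed. The stretch at Id4 is chr13:48356277-48356402 and that at Id3, which overlaps an annotated exon of the gene, is chr4:135699994-135700119. Both are on the plus strand and shown to set beside those of Id1 and Id2.
Id4 start: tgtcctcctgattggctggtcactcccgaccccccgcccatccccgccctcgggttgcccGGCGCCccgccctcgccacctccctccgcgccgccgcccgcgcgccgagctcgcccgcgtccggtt
Id3 start: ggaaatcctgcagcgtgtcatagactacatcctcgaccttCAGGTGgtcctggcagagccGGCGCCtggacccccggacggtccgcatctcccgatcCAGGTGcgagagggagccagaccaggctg
Capitals mark GGCGCC and, at Id3, the E-boxes CAGGTG on either side of it. Within 100 bp of the midpoint, GGCGCC was found in 3 of the 8 start-site peaks of the TGFβ 2 h list, against 21.1% of the shared promoter peaks in the series. The palindrome GTCTAGAC, to which Smad3 and Smad4 bind, was in none of the 28 vehicle and 32 TGFβ 2 h peaks over their whole width. Within 100 bp of the midpoint it stood in 0.336% of all TGFβ 2 h peaks.

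Of the 6 genes, Bhlhe40 had the largest difference in peak number. It lies at chr6:108610623-108616919 on the plus strand (ENSMUSG00000030103.5), with no other protein-coding start in the window. In the vehicle list it had 2 peaks and in the TGFβ 2 h list 8, of which 6 were TGFβ 2 h-only. Among the 22350 protein-coding genes, 33.7% had more TGFβ 2 h than vehicle peaks and 40.5% had at least 1 TGFβ 2 h-only peak. As many as 6 were found at 0.358% of them, and a difference of 6 or more peaks at 0.286%. These percentages describe a gene chosen from these lists and are no test.

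Both vehicle peaks of Bhlhe40 were shared. The start-site peak was 1911 bp wide in the vehicle list and 1848 bp in the TGFβ 2 h list, at a score of 1000. A peak at +49.19 kb measured 753 and 762 bp, with scores of 766 and 1000. The start-site peak was the widest of all member peaks and lay mainly upstream of the start. It held an AP-1 element, printed in capitals as TGAGTCA (chr6:108610025-108610151, plus strand), which was centred 10 bp from the midpoint of the TGFβ 2 h peak.
Bhlhe40 start: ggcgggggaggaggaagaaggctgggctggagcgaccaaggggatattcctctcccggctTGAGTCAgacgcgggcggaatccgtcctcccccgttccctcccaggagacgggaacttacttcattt
Of the shared promoter peaks in the TGFβ 2 h list, 2.68% held AP-1 within 100 bp of the midpoint. The same peak held 2 copies of CACGTG, the element that the Bhlhe40 protein itself binds.

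All 6 TGFβ 2 h-only peaks of Bhlhe40 lay downstream of the gene, between the gene end and the shared peak at +49.19 kb. They were centred at +7.73, +27.88, +28.37, +36.93, +44.02 and +45.55 kb, and all were intergenic with Bhlhe40 as the nearest protein-coding start. Their widths, in the same order, were 1274, 638, 144, 712, 639 and 422 bp. Their scores were 1000, 861, 861, 888, 789 and 1000. The peaks were neither uniformly weak nor uniformly narrow, since 2 of the 6 were at the ceiling. The pair near +28 kb was 104 bases apart and had the same score, so it may be counted as 1 site, and the peaks at +44.02 and +45.55 kb were 990 bases apart. Joining peaks less than 1000 bp apart left 4 regions more for TGFβ 2 h than for vehicle at Bhlhe40 in place of 6.

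No vehicle peak came closer than 3.05 kb to any of the 6. The gaps ran from 3.05 kb at +45.55 kb to 20.61 kb at +27.88 kb. The +45.55 kb peak had number 2968 in a list of 68542 rows, the earliest place of all unshared peaks of the 6 genes. The meaning of the numbering is not stated, but it follows the score, with a Spearman correlation across peaks of -0.886. Only 0.432% of the TGFβ 2 h peaks in the foremost part of that list, up to 10% of its rows, were TGFβ 2 h-only. The peak was singled out for its place, so this share is a description.

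Of the 6 peaks, 3 held AP-1 elements, and each of the 3 had one near its midpoint. These were the 3 in the stretch from +36.93 to +45.55 kb, with 5 elements in all. They are printed as the unshared Bhlhe40 peaks with AP-1, on the plus strand with AP-1, and in the last also an E-box CAGGTG written as CACCTG on this strand, in capitals. The positions are chr6:108647484-108647610, chr6:108654597-108654723 and chr6:108656166-108656292.
Bhlhe40 +36.93 kb: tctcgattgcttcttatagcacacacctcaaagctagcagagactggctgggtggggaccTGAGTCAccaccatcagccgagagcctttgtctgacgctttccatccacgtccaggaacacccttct
Bhlhe40 +44.02 kb: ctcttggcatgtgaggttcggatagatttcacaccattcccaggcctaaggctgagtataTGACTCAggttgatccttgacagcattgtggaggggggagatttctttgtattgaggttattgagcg
Bhlhe40 +45.55 kb: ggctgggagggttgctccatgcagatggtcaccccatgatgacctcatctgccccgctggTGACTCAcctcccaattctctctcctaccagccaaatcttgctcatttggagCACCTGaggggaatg
The elements shown were centred at -6, 12 and 61 bp from the midpoints of their peaks. Taken over both Bhlhe genes, 3 of 9 TGFβ 2 h-only peaks held AP-1 within 100 bp of the midpoint, and 27.2% of all distal TGFβ 2 h-only peaks in the series did. The share at the members was close to that of the series. The peak at +7.73 kb, the widest of the 6, held no AP-1 element and 1 CACGTG.

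Bhlhe41 had more TGFβ 2 h peaks as well when intervals were counted, and as many in both lists when every deposited row was counted. It lies at chr6:145806763-145814078 on the minus strand (ENSMUSG00000030256.5). The vehicle list held 5 peaks and the TGFβ 2 h list 8, of which 3 were TGFβ 2 h-only, a number that 6.55% of protein-coding genes reached. The start-site region was split: it was 1 vehicle peak of 1613 bp with a score of 932, which was overlapped by TGFβ 2 h peaks of 491 bp (score 671) and 726 bp (score 1000). The start itself thus stayed open in both lists, with fewer bases covered after TGFβ.

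Of the TGFβ 2 h-only peaks of Bhlhe41, those at +35.26 and +35.05 kb were 135 and 73 bp wide, 103 bases apart, and had the same score of 676. They lay nearer to the start of Rassf8, at 10.36 and 10.57 kb. The one at -16.7 kb was 491 bp wide with a score of 684 and lay 15.15 kb from the nearest vehicle peak. None was near the ceiling, and without peaks under 150 bp the difference at Bhlhe41 was 1 peak in place of 3. The vehicle-only peak, at +2.07 kb, lay over a coding exon of Bhlhe41 itself, measured 766 bp with a score of 777, and was 1.49 kb from the nearest TGFβ 2 h peak. It was the only unshared peak inside the body of any of the 6 genes.

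The E-box CACGTG recurred at Bhlhe41. A copy stood just upstream of the annotated start, and a pair of copies, 20 bases apart, lay in a shared peak at +9.68 kb, downstream of the gene. The shared peak measured 352 bp with a score of 894 for vehicle and 432 bp with a score of 1000 for TGFβ 2 h. Over its whole width the vehicle peak held 3 copies and the TGFβ 2 h peak 2. Both stretches are shown on the minus strand with CACGTG in capitals, at chr6:145814079-145814153 and chr6:145804351-145804476.
Bhlhe41 start: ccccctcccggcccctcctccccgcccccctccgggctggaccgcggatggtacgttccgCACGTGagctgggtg
Bhlhe41 +9.68 kb: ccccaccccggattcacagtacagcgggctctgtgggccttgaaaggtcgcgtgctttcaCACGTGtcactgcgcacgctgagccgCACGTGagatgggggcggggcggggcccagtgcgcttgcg
In the TGFβ 2 h list, CACGTG was within 100 bp of the midpoint in 5.93% of promoter peaks and 4.22% of distal peaks that were shared. By the same measure 1 of the 8 start-site peaks in that list held it, that of Bhlhe41 nearest the start. Over their whole width, for which no share of the series was computed, the Bhlhe40 peak and both parts of the split Bhlhe41 peak held it.

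Peaks matched one to one between the lists allowed widths to be compared. There were 20 such pairs near the 6 genes, 15 at Id genes and 5 at the Bhlhe pair. After TGFβ the peak narrowed in 11 of 15 Id pairs (73.3%, Wilson 95% interval 48.0 to 89.1) and in 2 of 5 Bhlhe pairs (40.0%, 11.8 to 76.9), against 70.9% of 13978 pairs in the series. The median width ratio of TGFβ 2 h over vehicle was 0.958 for the Id genes and 1.01 for the Bhlhe pair, with a series median of 0.906. The Id pairs were thus close to the series in how often they narrowed, and the start-site peaks of all 4 Id genes and of Bhlhe40 had a lower width after TGFβ.

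Counted per gene, vehicle-only peaks outnumbered TGFβ 2 h-only peaks at Id1, Id2 and Id4 and at 13.4% of protein-coding genes, and the reverse was found at Bhlhe40 and Bhlhe41 and at 31.7% of protein-coding genes. Since the genes were chosen on these counts, they are given as a description.

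The place of a peak in its list is its number as a percent of the rows. The lists differ in length and in rows per peak, so places are set side by side as a description and not read as a change. The Id3 start-site peak stood at 6.4% of the vehicle list and 19.5% of the TGFβ 2 h list. The Id1 peak over the start stood at 10.3% and 19.6%, and the Id2 peak at 22.2% and 27.0%. The order was the other way for Id4, at 23.5% and 13.6%, and for Bhlhe40, at 15.1% and 8.7%. A higher percent in the TGFβ 2 h list was found for 6 of the 15 Id pairs and 0 of the 5 Bhlhe pairs, against 48.9% of all pairs and 53.6% of promoter pairs in the series. All of these start-site peaks except the upstream one of Id1 scored 1000 in both lists, so the score itself did not separate them.

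**Figure D3:**
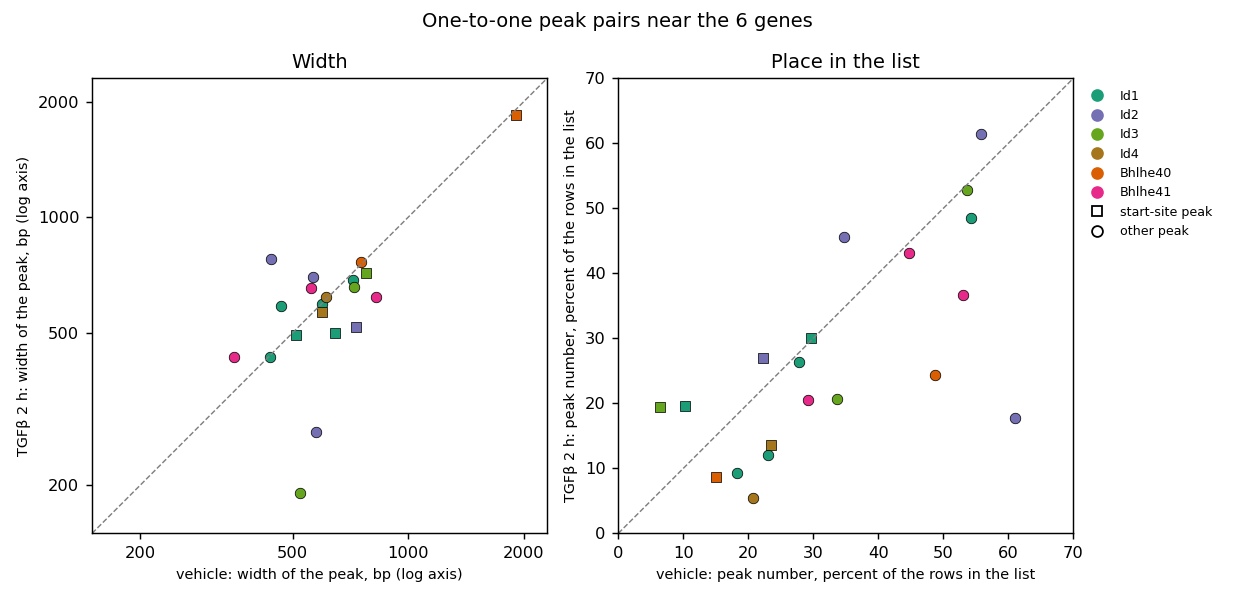
The 20 one-to-one pairs of peaks near the 6 genes, with the vehicle value on the horizontal and the TGFβ 2 h value on the vertical axis: width in bp on log axes (left) and the peak number as a percent of the rows in its list (right). Squares are start-site peaks and the dashed line marks equal values; the 5 Bhlhe points lie below the line on the right, and start-site peaks of Id1, Id2 and Id3 lie above it.

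**Figure D4:**
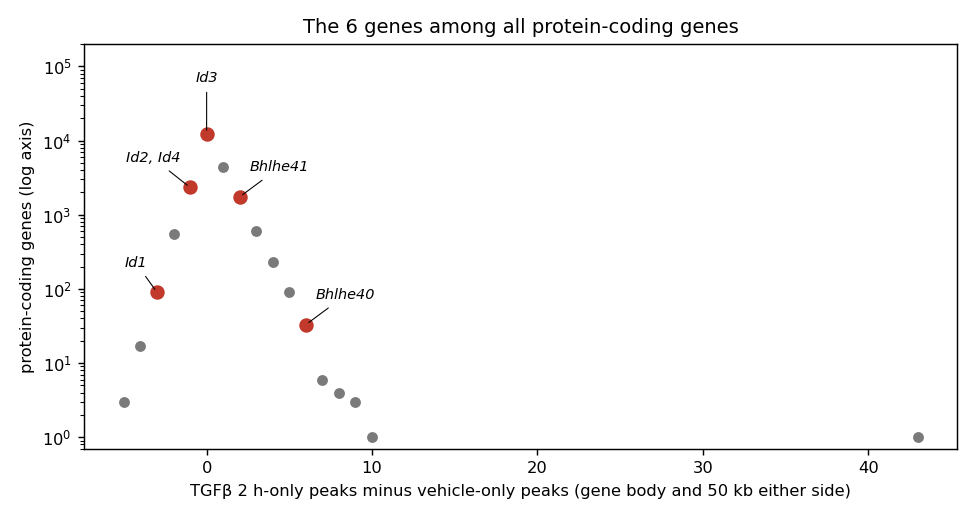
Number of protein-coding genes (log axis) at each value of TGFβ 2 h-only minus vehicle-only peaks, with the 6 genes in red. Most genes (12278 of 22350) are at 0, where Id3 lies; Id2 and Id4 are at -1, Id1 at -3, Bhlhe41 at 2 and Bhlhe40 at 6.

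Start-site peaks were rich in GC and CpG, as is usual for CpG island promoters. GC content of the 8 start-site peaks in the TGFβ 2 h list ran from 60.0% to 68.8%, with a median of 65.5%. In the 10 TGFβ 2 h-only peaks it ran from 39.7% to 61.9%, with a median of 52.6%, and in the 7 vehicle-only peaks from 51.3% to 70.5%, with a median of 59.4%. The ratio of observed to expected CpG had medians of 0.72 at start-site peaks, 0.26 in TGFβ 2 h-only peaks and 0.42 in vehicle-only peaks. The unshared peaks of the lists overlapped in both measures, with the vehicle-only ones the richer at the median.

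Genes that act with this family were counted in the same way, in lists put together with earlier results known. The E protein genes Tcf3, Tcf4 and Tcf12, whose products the Id proteins bind, had promoter peaks in both lists at all 3 genes, with 10 vehicle and 12 TGFβ 2 h peaks. Tcf4 accounted for the difference, with 2 vehicle and 4 TGFβ 2 h peaks, whereas Tcf3 had 5 and Tcf12 had 3 in each list. Of the 7 other repressors (Hes1, Hes6, Hes7, Hey1, Hey2, Heyl, Helt), none had fewer TGFβ 2 h peaks, and 2 had more, against 13.2% and 33.7% of protein-coding genes. Hes1, an effector of Notch, went from 5 to 8 peaks with 3 TGFβ 2 h-only, and Hes7 from 9 to 11. Of the Id genes, 3 of 4 had fewer TGFβ 2 h peaks and the fourth had equal numbers, and the difference from the Hes and Hey genes was not tested. Among peaks at or above the median score, TGFβ 2 h minus vehicle was 0 at Id1, -1 at Id2, 2 at Id3 and 0 at Id4.

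Activators that Id proteins hold in check in other tissues were examined next. Of 10 such genes (Myod1, Myf5, Myog, Ascl2, Neurod1, Tal1, Hand1, Hand2, Twist1, Twist2), Twist2 alone had a promoter peak called, in both lists, against 45.8% and 46.4% of protein-coding genes, and together they had 10 peaks near them in each list. Among 10 genes of BMP and Smad signalling and Id1 control, 8 had promoter peaks in both lists, with 27 vehicle and 30 TGFβ 2 h peaks in all. Smad6, an inhibitor of BMP signalling, went from 4 to 7 peaks and Atf3 from 4 to 5, while Acvr1, a type I BMP receptor, went from 5 to 3 and Smad4 from 3 to 2. In this list 4 genes had more TGFβ 2 h peaks, 2 had fewer and 4 were level, against 33.7% more and 13.2% fewer among all protein-coding genes.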

How the data were processed

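DNaseI-seq was measured in NMuMG cells, with 1 deposited peak list for vehicle and 1 for TGFβ 2 h, grouped by sample title. Per the methods, the authors aligned reads to mm9 and followed their ATAC-seq pipeline with options that are not stated. The submitters' processing notes name MACS2 2.1.2 and deepTools. The deposited score is the authors' whole-number score per peak, used here only within a list. The sources differ on the sequencer and on read length, and the lists give no depth (read numbers of the study's reporting summary were not used).

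An interval that a list repeats was taken as 1 peak (means of 3.96 rows per peak for vehicle and 3.03 for TGFβ 2 h; what the repeats stand for is not stated). Overlaps (1 bp or more), windows of 50 kb and promoter windows of 1000 bp were computed in Python 3.11.15 (numpy 2.4.6, pandas 2.3.3) with NCBIM37 sequence and GENCODE M1 genes. The overlap code was tested on simulated data. Coordinates are 1-based. Motifs were exact letters on both strands, within 100 bp of the midpoint unless said otherwise: AP-1 (TGACTCA), the CRE (TGACGTCA), the Smad palindrome (GTCTAGAC), the GC element (GGCGCC) and 3 E-boxes (CACGTG and also CAGCTG and also CAGGTG). No motif contains another, though AP-1 and the CRE share letters. With 1 list per condition no test was made. The 6 genes, the other gene lists and all rules were chosen with earlier results of these data known. All peaks of the 6 genes are counted, and start-site, unshared and gene-body peaks are described singly. Some genes of the other lists are not reported here.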

Additional observations from a re-analysis of the deposited data

How the results depend on the processing

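No paired analysis was possible because the data analysed here are 1 list per condition. The main values for the 6 genes were a difference of 4 peaks (TGFβ 2 h minus vehicle), 10 TGFβ 2 h-only and 7 vehicle-only peaks, a TGFβ 2 h-only share of 31.2% and a median width ratio of 0.967. The difference was -5 at the Id genes and 9 at the Bhlhe pair. Counting every deposited row turned the difference for the 6 genes to -8 (-24 at the Id genes, 16 at the Bhlhe pair), with 23 rows in TGFβ 2 h-only and 23 in vehicle-only peaks, because vehicle peaks held more rows. Within 20 kb the values were a difference of 1 (-1 and 2 for the groups), 3 TGFβ 2 h-only peaks, 3 vehicle-only peaks and a share of 17.6%. Within 100 kb they were a difference of 2 and 12 vehicle-only peaks. Leaving out peaks with a score below their list's median gave 1 for the Id genes, a reversed direction, with 5 for the Bhlhe pair. The share was then 52.9%, with 3 vehicle-only peaks, by overlap among the kept peaks only. The cut was the score ceiling in the vehicle list and a lower score in the TGFβ 2 h list. Cutting the TGFβ 2 h list to equal length (ties broken by peak number) gave a difference of 2, dropping peaks under 150 bp gave 1, and a reciprocal overlap of 50% gave 11 vehicle-only peaks. Taking only peaks whose nearest protein-coding start was a member gave -2 for the Id genes. Joining peaks under 1000 bp apart, an alternative chosen after seeing the data, gave a difference of 0 and 5 for the Bhlhe pair. Where a setting can change the number of peaks, which the overlap rules cannot, the direction at the Bhlhe pair was kept, and that at the Id genes was kept except at the median score. The cause of the other shifts was not tested. At Bhlhe40 alone the difference ran from 1 (within 20 kb) to 16 (every row), and at Bhlhe41, 3 in the main count, it was 0 when every row was counted. At Id1 it ran from -10 (every row) to 0 (median score), and at Id3, level in the main count, from -4 (every row) to 2 (median score).

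The lists hold no depth and no replicate, and unshared peaks are frequent late in a list. Beyond the middle of their list, 51.5% of vehicle peaks overlapped no TGFβ 2 h peak, and 70.4% of TGFβ 2 h peaks overlapped no vehicle peak. Of the 17 unshared peaks, 4 were at the score ceiling.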
